A study of Mus musculus with 19 samples.

Results

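The genes studied here encode subunits of the vacuolar ATPase, a proton pump, and their transcripts were measured in dendrites severed from cultured mouse hippocampal neurons. The members were 10 genes taken by name: Atp6v1a, Atp6v1b2, Atp6v1d, Atp6v1e1, Atp6v1f, Atp6v1g2 and Atp6v1h of the cytosolic V1 sector, and Atp6v0a1, Atp6v0b and Atp6v0d1 of the membrane-bound V0 sector. They are 10 of the 18193 genes on the array, and 26 of its probe sets carry their symbols. All 10 were on the array and none was dropped by a filter.

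The arrays, all of untreated cells, fell into groups by strain. The Balb/c group held 5 arrays, 2 of pools of 100 dendrites, 1 of 200 and 2 of 400. The C57BL/6 group held 14 arrays, 4 of pools of 100, 5 of 200 and 5 of 400. Both groups came from primary cultures of hippocampal neurons of E18 embryos of an inbred strain, grown for 14 days, and each pool was gathered from several neurons and amplified in several rounds before hybridisation. The labels call the replicates biological, but whether 2 pools of a strain shared a culture or a litter is not said, and the p-values therefore cover only the spread from pool to pool. The number of arrays limits the precision. An array name gives strain, pool size and replicate, as in Balb/c 200-1 for replicate 1 of the Balb/c pools of 200.

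The vacuolar ATPase uses ATP to move protons into the lumen of lysosomes, endosomes, Golgi cisternae and secretory and synaptic vesicles. ATP is hydrolysed in the V1 head by the A and B subunits, and the turning of a central stalk (D and F, joined to d of V0) drives the ring of proteolipid subunits past subunit a, where protons cross the membrane. Peripheral stalks of E and G subunits, with C and H, hold the head still. V1 and V0 can separate, which stops the pump. In neurons the proton gradient loads synaptic vesicles with transmitter and keeps lysosomes and dendritic endosomes acidic.

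The DNA just before the start sites of 4 members is shown because 3 of them had the clearest strain differences and the other, Atp6v0b, carries the sequence CACGTG that is the core of the site bound by TFEB, a transcription factor of lysosomal genes. Each line gives the 250 bases before the start in RefSeq (GRCm38.p6), 5′ to 3′ on the strand of the gene. Capitals mark each match to CACGTG, which reads the same on both strands, and to GGGCGG or its reverse complement CCGCCC, the core of the GC box bound by Sp1. The Atp6v1d stretch is chr12:78861639-78861888 on the minus strand, that of Atp6v1e1 chr6:120822699-120822948 on the minus strand, that of Atp6v1f chr6:29467533-29467782 on the plus strand and that of Atp6v0b chr4:117887330-117887579 on the minus strand.
Atp6v1d: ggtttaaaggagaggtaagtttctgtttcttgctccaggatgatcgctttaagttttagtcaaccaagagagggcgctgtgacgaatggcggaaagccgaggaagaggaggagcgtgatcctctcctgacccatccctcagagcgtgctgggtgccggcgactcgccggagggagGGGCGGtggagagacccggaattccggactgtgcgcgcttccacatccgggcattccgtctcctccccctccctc
Atp6v1e1: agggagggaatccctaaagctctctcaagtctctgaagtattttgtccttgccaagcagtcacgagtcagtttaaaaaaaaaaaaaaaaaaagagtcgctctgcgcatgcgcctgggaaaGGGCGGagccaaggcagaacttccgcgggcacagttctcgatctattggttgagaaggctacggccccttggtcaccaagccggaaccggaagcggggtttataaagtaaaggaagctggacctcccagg
Atp6v1f: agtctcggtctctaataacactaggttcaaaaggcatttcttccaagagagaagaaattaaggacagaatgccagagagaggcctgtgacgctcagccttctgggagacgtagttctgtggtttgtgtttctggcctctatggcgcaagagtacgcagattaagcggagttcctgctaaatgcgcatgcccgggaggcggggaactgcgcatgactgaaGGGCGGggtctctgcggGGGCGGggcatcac
Atp6v0b: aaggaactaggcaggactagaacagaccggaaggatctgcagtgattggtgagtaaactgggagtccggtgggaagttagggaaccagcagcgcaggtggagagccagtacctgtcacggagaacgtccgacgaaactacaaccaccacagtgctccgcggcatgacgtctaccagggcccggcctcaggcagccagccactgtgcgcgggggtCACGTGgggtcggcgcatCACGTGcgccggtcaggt

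Windows of 300 bases, from 250 before to 50 after the start, were found for 8 of the 10 members. CACGTG lay in the windows of 3 of these 8, at 36 and 18 bases before the start in Atp6v0b, at 131 before it in Atp6v1a and at 3 before it in Atp6v0d1. It occurs in 7.15% of the 32851 windows of all genes. The longer form TCACGTGA, found in 0.974% of all windows, was present in Atp6v1a and Atp6v0d1. A GC box was present in 6 of the 8 members, among them Atp6v1d, Atp6v1e1 and Atp6v1f, against 35.7% of all windows. TATAAA or its reverse complement TTTATA, present in 13.6% of all windows, was found in Atp6v1e1, where both lie within the 8 bases that begin 32 bases before the start. These matches describe letters in a window and are not measured binding sites.

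Values are log2 signals, and a gene's value is the median of its probe sets. Probes of different genes have no common scale, so levels are compared between arrays for the same gene and not between genes. As a gauge of low signal, the median over 39 olfactory receptor genes, which are textbook genes of the nose, ran from 6.997 to 7.37 on the Balb/c arrays and from 5.98 to 7.13 on the C57BL/6 arrays. Since the median over all genes was 0.22 higher in Balb/c, differences (Balb/c minus C57BL/6) are given relative to that median gene. The tests themselves were run on the values as deposited.

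The comparison of strains asked which subunits differ in dendrites of 2 inbred mice, the distance within a species that the study set beside that between mouse and rat. Of the 10 members, 3 fell in Balb/c and 0 rose. The 3 were Atp6v1d, Atp6v1e1 and Atp6v1f, that is, both subunits of the turning stalk of V1 and a subunit of the peripheral stalk. None of these 3 calls held once the number format of the columns, a technical split given with its values after the probe sets, was made a block in the fit. Over all genes tested, 11.4% fell and 21.1% rose at the same threshold, an adjusted p of 0.05 in limma. After quantile normalisation these shares were 13.9% and 15.2%. All 3 of the members that fell had a mean over the 19 arrays above 7.5, a level picked after the values were seen, as had Atp6v0d1, which did not pass. Among the 5448 genes above 7.5, 23.1% fell and 15.6% rose, and among the 12745 at or below it, where the other 6 members lie, 6.4% fell and 23.4% rose. The median difference of the 10 members was −0.67 relative to the median gene, and 7 of 10 lay below the median gene. The mean of the 10 members per array ran from 6.80 to 7.74 in Balb/c and from 7.24 to 8.73 in C57BL/6, so the strains overlapped. A smaller share of RNA from dendrites that hold these transcripts and less of the transcripts per dendrite cannot be told apart in such pools.

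**Figure D1:**
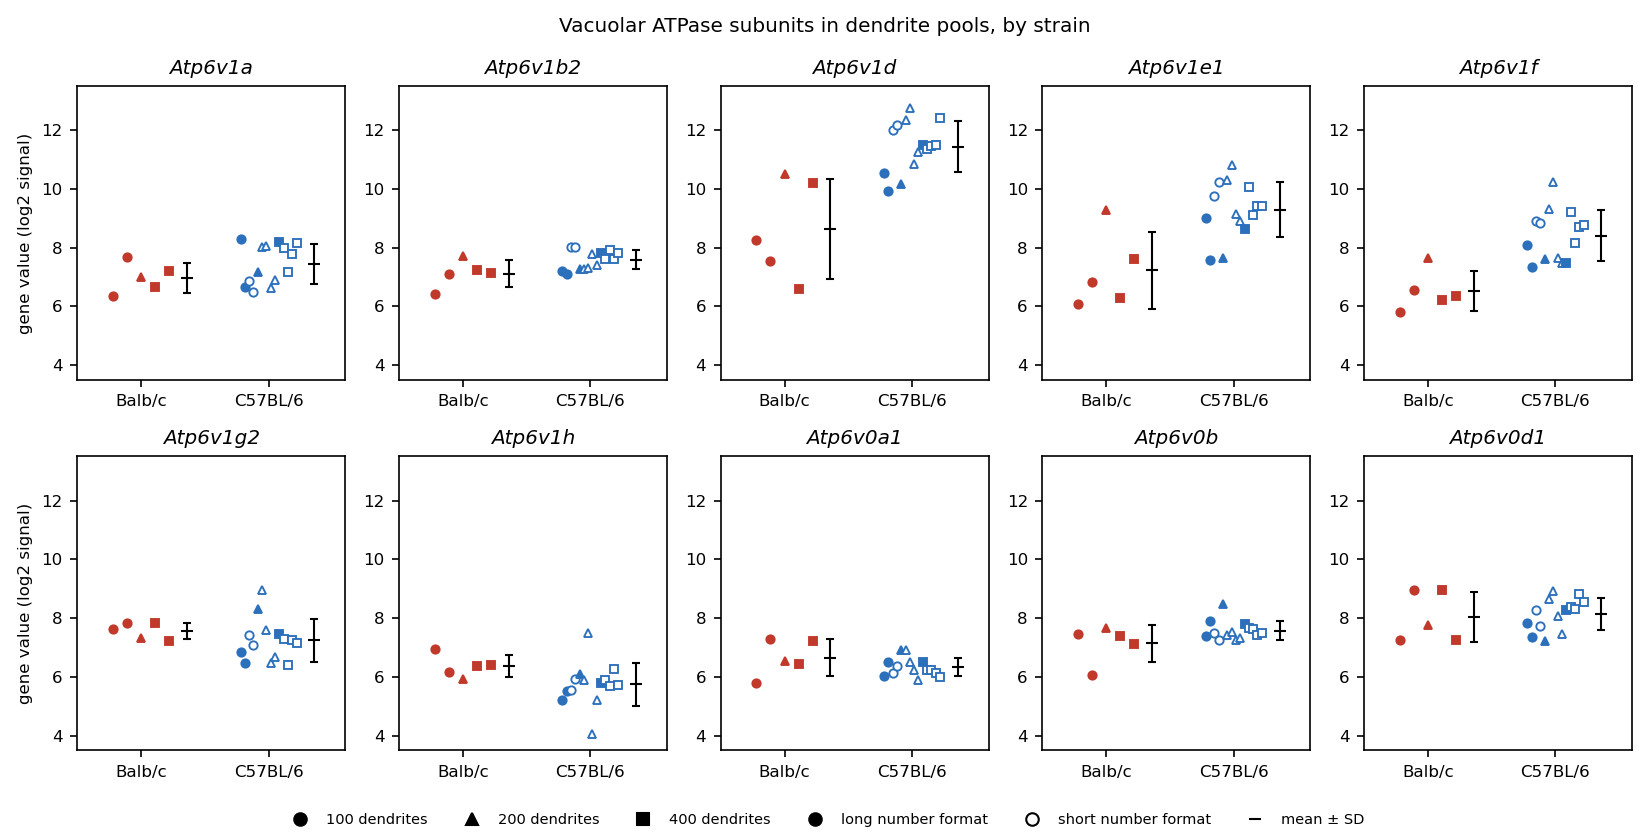
Gene values (log2 signal, vertical axis) of the 10 subunits on each array, Balb/c (5 arrays) left of C57BL/6 (14 arrays), with the symbol for the pool size, fill for the number format of the column and mean ± SD beside each group. Atp6v1d, Atp6v1e1 and Atp6v1f show the widest separation, with Balb/c means of 8.62, 7.22 and 6.52 against 11.4, 9.29 and 8.41 in C57BL/6.

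Atp6v1d encodes subunit D, the shaft of the rotor. Its value was 8.28 in Balb/c 100-1, 7.55 in 100-2, 10.5 in 200-1, 6.58 in 400-1 and 10.2 in 400-2, against a lowest of 9.94, a median of 11.5 and a highest of 12.7 on the C57BL/6 arrays. Balb/c 200-1 and 400-2 lay at the low end of the C57BL/6 range, and the other 3 Balb/c arrays were below every C57BL/6 array. The means were 8.62 ± 1.70 in Balb/c (SD, n = 5) and 11.4 ± 0.85 in C57BL/6 (SD, n = 14), and the difference was −3.03 ± 0.52 (SE) relative to the median gene, with a limma adjusted p of 0.000662. All 3 probe sets of Atp6v1d fell. The a_at probe sets, which by Affymetrix naming read several transcripts of a gene, differed by −3.07 (1416951_a_at) and −2.70 (1438993_a_at). The third, 1416952_at, stood between 5.62 and 6.53 on the 5 Balb/c arrays and between 6.04 and 10.6 in C57BL/6, a difference of −2.70 ± 0.64 (adjusted p = 0.00641). Its Balb/c values all lay below the olfactory receptor medians, so the size of that difference can be bounded by background.

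Atp6v1f encodes subunit F, which binds D in the rotor, and is read by the probe set 1423993_at alone. Its value was 5.82 in Balb/c 100-1, 6.56 in 100-2, 7.64 in 200-1, 6.21 in 400-1 and 6.35 in 400-2, against 7.33, 8.44 and 10.2 as the lowest, median and highest of C57BL/6. Only Balb/c 200-1 reached into the C57BL/6 range. Atp6v1f averaged 6.52 ± 0.68 in Balb/c (n = 5) and 8.41 ± 0.87 in C57BL/6 (n = 14), a difference of −2.11 ± 0.40 (adjusted p = 0.00162). On 4 of the 5 Balb/c arrays, and on none of the 14 of C57BL/6, Atp6v1f was below the olfactory receptor median of the same array, so the size of its difference can be bounded by background.

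Atp6v1e1 encodes subunit E1, the ubiquitous form of a peripheral stalk subunit. Balb/c values were 6.08 in 100-1, 6.85 in 100-2, 9.29 in 200-1, 6.30 in 400-1 and 7.61 in 400-2. In C57BL/6 they ran from 7.58 to 10.8 with a median of 9.29. Balb/c 200-1 thus stood at the C57BL/6 median, and 400-2 at its low end. The means of 7.22 ± 1.30 (SD, n = 5) and 9.29 ± 0.94 (SD, n = 14) gave a difference of −2.28 ± 0.49 (adjusted p = 0.00347), the size of which can be bounded as well, with 3 of 5 Balb/c arrays below their olfactory receptor medians. Of its 4 probe sets 2 fell, 1449711_at with −3.29 and 1449712_s_at with −2.61. The s_at form can also read another gene. Its remaining probe sets did not pass, with −1.49 for 1420038_at (adjusted p = 0.0584) and 0.13 for 1457049_at (adjusted p = 0.326). The adjusted p of 1420038_at was 0.0217 without Balb/c 200-1, 0.0182 without C57BL/6 100-2, 0.0408 without C57BL/6 200-1 and 0.042 without C57BL/6 400-1. With other single arrays left out, this adjusted p reached 0.21.

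The other V1 members did not pass on their gene values. Atp6v1a, the catalytic A subunit, averaged 6.98 ± 0.51 in Balb/c and 7.46 ± 0.68 in C57BL/6, a difference of −0.69 ± 0.32 (adjusted p = 0.264). Atp6v1b2, the B subunit isoform found in brain, averaged 7.12 ± 0.47 and 7.59 ± 0.32, again a difference of −0.69 (adjusted p = 0.106), with 4 of 5 Balb/c arrays below the C57BL/6 mean. Atp6v1g2, the neuronal form of the peripheral stalk subunit G, averaged 7.57 ± 0.28 in Balb/c and 7.24 ± 0.72 in C57BL/6, a difference of 0.11 ± 0.33 (adjusted p = 0.459). Atp6v1h, the regulatory H subunit, averaged 6.36 ± 0.38 in Balb/c and 5.74 ± 0.73 in C57BL/6. Its difference of 0.40 had an adjusted p of 0.158, which became 0.0441 when C57BL/6 200-3, its highest array at 7.49, was left out. With other single arrays left out, this adjusted p reached 0.336. Atp6v1h was below the olfactory receptor median on 5 of 5 Balb/c arrays and on 12 of 14 of C57BL/6. Its difference therefore lies largely within background signal. Without Balb/c 200-1, Atp6v1b2 had an adjusted p of 0.0389, and with other single arrays left out it reached 0.337. Atp6v1b2 was below the olfactory receptor median on 4 of 5 Balb/c arrays and on none of C57BL/6.

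None of the 3 V0 members passed on gene values. Atp6v0a1, the a1 subunit of neurons that forms the proton path, averaged 6.66 ± 0.62 in Balb/c and 6.33 ± 0.32 in C57BL/6, a difference of 0.11 ± 0.24 (adjusted p = 0.298). Its gene value was below the olfactory receptor median on 3 of 5 Balb/c arrays and on 6 of 14 of C57BL/6. Atp6v0b, the proteolipid c″ of the ring, averaged 7.14 ± 0.63 and 7.58 ± 0.32, a difference of −0.65 (adjusted p = 0.165). Atp6v0d1, subunit d1, which couples the rotor to the ring and is read by 1415671_at alone, averaged 8.04 ± 0.86 in Balb/c and 8.13 ± 0.54 in C57BL/6, a difference of −0.31 ± 0.32 (adjusted p = 0.853).

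Probe sets of the same gene often differed. Of the 26 probe sets, 10 fell and 2 rose in Balb/c, against 11.6% and 21.3% of the 45037 probe sets tested. The 10 belonged to 7 genes: 3 to Atp6v1d, 2 to Atp6v1e1 and 1 each to Atp6v1f, Atp6v1a, Atp6v1b2, Atp6v0a1 and Atp6v0b. No member and no probe set of a member had all Balb/c arrays below, or all above, all C57BL/6 arrays, which held for 0.418% and 0.797% of genes and for 0.446% and 0.757% of probe sets.

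**Figure D2:**
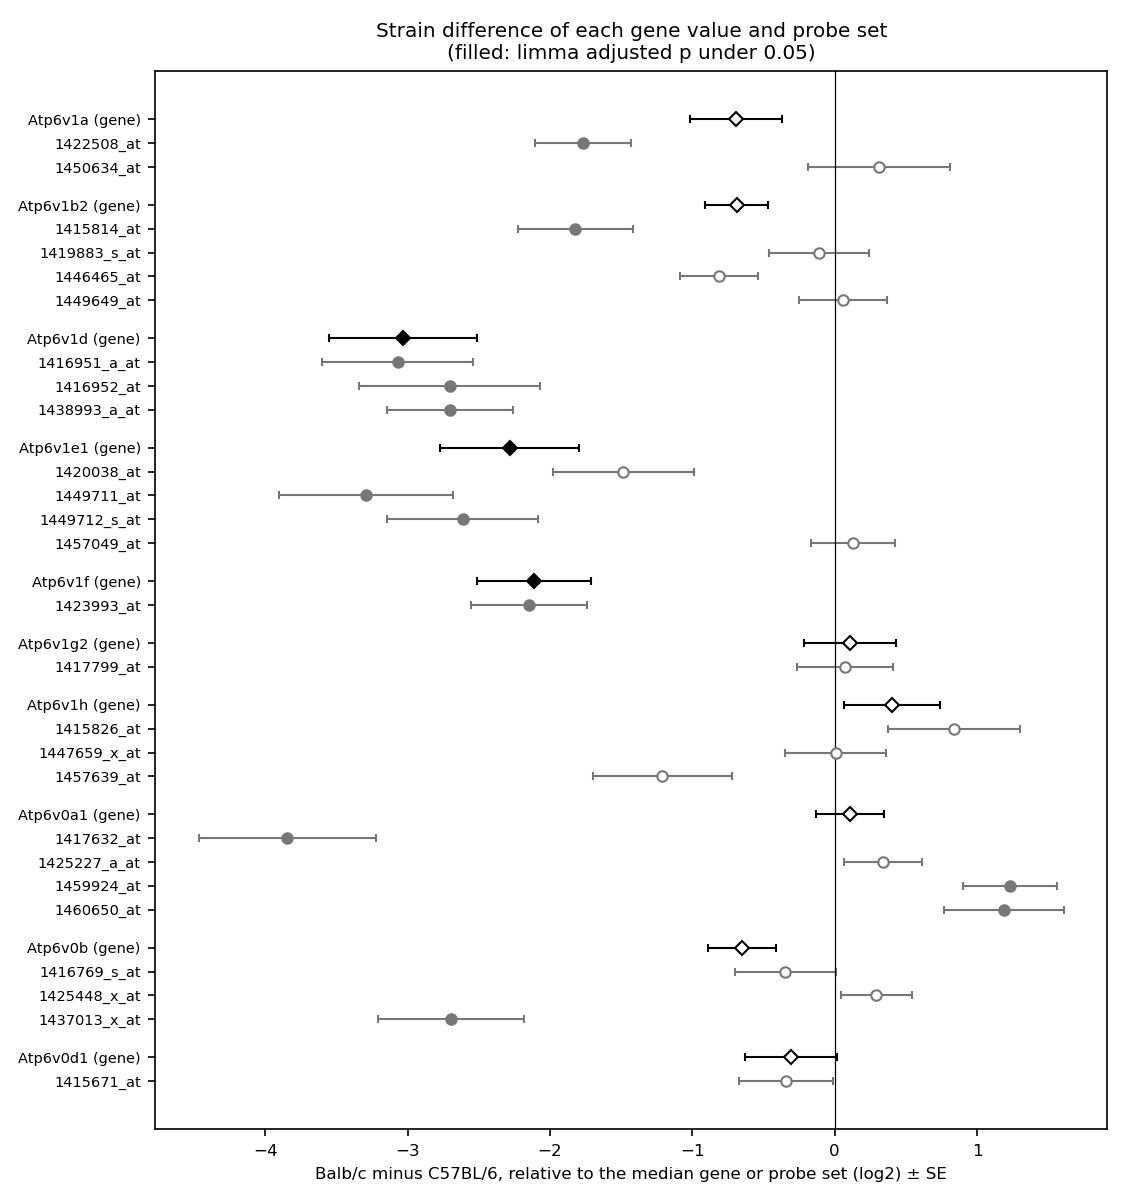
Difference between Balb/c and C57BL/6 (log2, relative to the median gene or probe set, ± SE) for each gene value (diamonds) and each of the 26 probe sets (circles), filled where the limma adjusted p was under 0.05. Atp6v0a1 holds both a probe set at −3.84 and the 2 that rose, at 1.23 and 1.19.

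Atp6v0a1 had the widest split. Its probe set 1417632_at stood at 5.32 in Balb/c 100-1, 5.99 in 100-2, 11.6 in 200-1, 6.42 in 400-1 and 7.94 in 400-2, against a lowest of 10.4, a median of 10.9 and a highest of 12.6 in C57BL/6. Balb/c 200-1 lay inside the C57BL/6 range and the other 4 Balb/c arrays were below all of it. With means of 7.46 ± 2.53 in Balb/c and 11.05 ± 0.59 in C57BL/6, the fitted difference was −3.84 ± 0.62 (adjusted p = 0.000413). The signal of 1417632_at was below the olfactory receptor median on 3 of the 5 Balb/c arrays and on none of C57BL/6, so this size can be bounded by background.

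Another 2 probe sets of the gene rose in Balb/c. 1459924_at was at 8.24 in Balb/c 100-1, 9.93 in 100-2, 7.53 in 200-1, 8.69 in 400-1 and 8.65 in 400-2, while C57BL/6 ran from 6.00 to 7.98 with a median of 7.09, so that only 200-1 overlapped. Its difference was 1.23 ± 0.33 (adjusted p = 0.0023). 1460650_at averaged 6.26 ± 1.14 in Balb/c and 4.82 ± 0.74 in C57BL/6, a difference of 1.19 ± 0.42 (adjusted p = 0.0128), with Balb/c 200-1 the lowest Balb/c array at 4.99. That call was lost without Balb/c 100-2, which stood at 7.91 (0.78, adjusted p = 0.0682). The signal of 1460650_at was below the olfactory receptor median on 4 of 5 Balb/c arrays and on 14 of 14 of C57BL/6. Its difference therefore lies largely within background signal. The remaining probe set, 1425227_a_at, differed by 0.34 (adjusted p = 0.1). The gene value of Atp6v0a1, a median over these 4 probe sets, therefore lay between opposite differences. Where each probe set lies on the transcripts was not analysed here. The C57BL/6 means of 1425227_a_at (5.46) and 1460650_at (4.82) were below the olfactory receptor medians of every array of that strain.

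A further 3 genes had 1 lowered probe set each. For Atp6v1a, 1422508_at was at 4.59, 4.30, 6.51, 4.75 and 5.31 in Balb/c 100-1, 100-2, 200-1, 400-1 and 400-2, against 5.71 to 7.34 in C57BL/6 with a median of 6.80, a difference of −1.77 ± 0.34 (adjusted p = 0.00241). The signal was below the olfactory receptor median on 5 of 5 Balb/c arrays and on 6 of 14 of C57BL/6, so the size can be bounded by background. Its other probe set, 1450634_at, was at 8.87 ± 1.36 in Balb/c and 8.31 ± 0.92 in C57BL/6 and did not pass (0.31, adjusted p = 0.397). For Atp6v1b2, 1415814_at was at 7.95 ± 0.76 in Balb/c and 9.52 ± 0.82 in C57BL/6, a difference of −1.82 ± 0.40 (adjusted p = 0.00594), while the differences of 1419883_s_at, 1446465_at and 1449649_at were −0.11, −0.81 and 0.06 and did not pass. Without Balb/c 400-1, 1446465_at had an adjusted p of 0.0464, and with other single arrays left out it rose to as much as 0.279. The signal of 1446465_at was below the olfactory receptor median on 5 of 5 Balb/c arrays and on 11 of 14 of C57BL/6. For Atp6v0b, 1437013_x_at was at 7.92 in Balb/c 100-1, 5.61 in 100-2, 9.97 in 200-1, 6.53 in 400-1 and 7.11 in 400-2, against 8.73 to 11.1 in C57BL/6, a difference of −2.70 ± 0.51 (adjusted p = 0.00155), with 3 of 5 Balb/c arrays below their olfactory receptor medians. The x_at form marks probes that may bind other sequences, and all 3 probe sets of Atp6v0b are of the x_at or s_at form. Its 1425448_x_at differed by 0.29 (adjusted p = 0.0958, which was 0.0382 without C57BL/6 200-1 and up to 0.258 with other single arrays left out). The other members with several probe sets include Atp6v1h, whose 3 differed by 0.84, 0.01 and −1.21, none of which passed. The first of these, 1415826_at, had an adjusted p of 0.0725, which was 0.042 without Balb/c 200-1 and 0.0349 without C57BL/6 200-3. With other single arrays left out, this adjusted p reached 0.374. The signal of 1415826_at was below the olfactory receptor median on 4 of 5 Balb/c arrays and on 12 of 14 of C57BL/6.

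**Figure D3:**
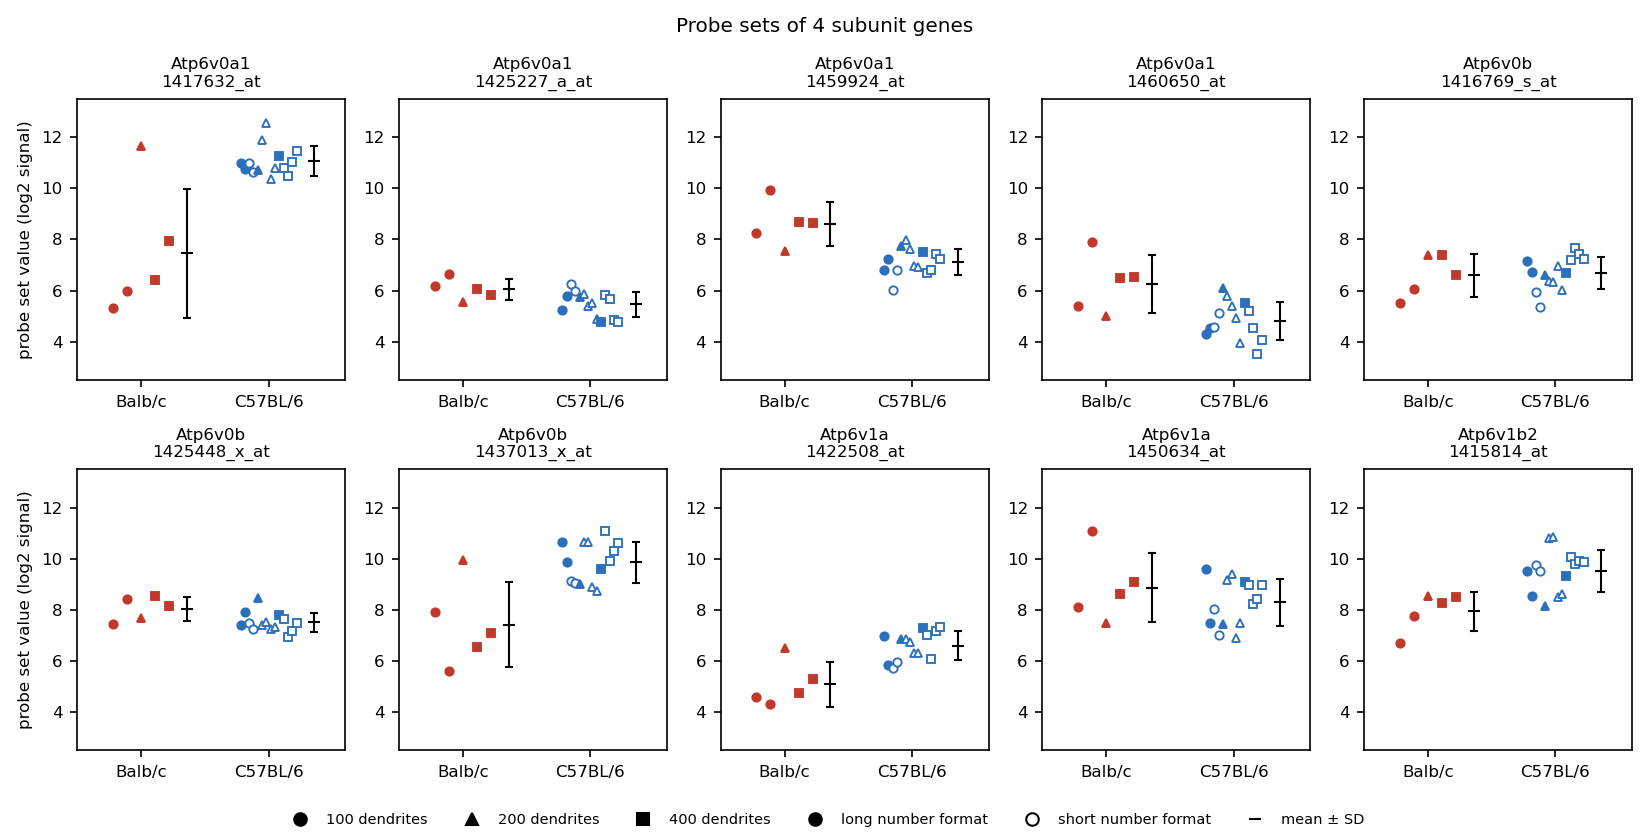
Values (log2 signal, vertical axis) of the 4 probe sets of Atp6v0a1, the 3 of Atp6v0b, the 2 of Atp6v1a and 1 of Atp6v1b2 on each array, Balb/c left of C57BL/6, with symbols for pool size, fill for number format and mean ± SD. In 1417632_at, 1437013_x_at and 1422508_at, Balb/c 200-1 (11.6, 9.97 and 6.51) sits within the C57BL/6 range and apart from the other Balb/c arrays.

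Arrays within Balb/c did not share the lower values equally. Balb/c 200-1 was the highest Balb/c array in 9 of the 10 probe sets that fell, the exception being 1416952_at of Atp6v1d. For the Actb control probe sets, the 3' signal less the 5' signal, a sign of how far the amplified RNA reaches, was recorded, and Balb/c arrays ran from −0.69 to 2.27, with 200-1 at 2.27, and C57BL/6 arrays from 1.17 to 5.56. C57BL/6 200-1 (1.17) and 400-1 (1.65) were the lowest of their strain. The same measure for Gapdh overlapped more, at 1.48 to 4.72 in Balb/c and 2.39 to 5.00 in C57BL/6, and ordered the arrays otherwise, with C57BL/6 200-1 the highest of its strain and Balb/c 400-1 at 4.23. The part of these signals in the subunit differences was not tested. An alternative left out Balb/c 200-1, C57BL/6 200-1 and C57BL/6 400-1, picked as lying between the strains, which by itself can widen strain differences. Atp6v1d, Atp6v1e1 and Atp6v1f then differed by −3.66, −3.04 and −2.58, and 4 members fell. Of all genes, 15.3% fell and 28.2% rose in that fit. The SD was larger in Balb/c for 6 of the 10 members, close to the 58.7% of all genes. With a variance per strain, 3 members still fell, beside 8.72% of all genes.

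The columns differed in number format, a technical split that bears on every strain result. The 5 Balb/c arrays and 4 C57BL/6 arrays (100-1, 100-2, 200-1 and 400-1) have values with up to 14 decimals, and the other 10 C57BL/6 arrays up to 9. For the 3 members that fell, the 4 long-format C57BL/6 arrays had means between those of Balb/c and of the short-format C57BL/6 arrays. The range of those 4 arrays overlapped both other groups in each of these members. Atp6v1d was at 8.62 ± 1.70 in Balb/c, 10.5 ± 0.68 in those 4 arrays and 11.8 ± 0.62 in the 10 of the short format. For Atp6v1e1 these means were 7.22, 8.22 and 9.72, and for Atp6v1f 6.52, 7.63 and 8.73. With the format as a block, the differences of Atp6v1d, Atp6v1e1 and Atp6v1f were −2.04, −1.12 and −1.24, with adjusted p of 0.0892, 0.279 and 0.163. None of the 10 members passed in that fit by limma, where 1.28% of all genes fell at the adjusted threshold. At an unadjusted p under 0.05, 3 members were lower, beside 3914 of the 18193 genes in either direction. Within the 9 arrays of the long format, 0 members and 0 genes passed, with 2 members lower and 2367 genes either way at an unadjusted p under 0.05.

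A probe set that did not follow the format was 1417632_at of Atp6v0a1, at 7.46 ± 2.53 in Balb/c, 10.9 ± 0.25 in the 4 long-format C57BL/6 arrays and 11.1 ± 0.69 in the 10 of the short format. It was the only one of the 26 probe sets to pass with the format as a block, at −3.62 (adjusted p = 0.0354), and it did not pass within the 9 long-format arrays (adjusted p = 0.352). The 1437013_x_at probe set of Atp6v0b behaved alike in its means (7.43 in Balb/c, 9.79 and 9.90 in the C57BL/6 arrays of the long and the short format), at −2.52 with the block (adjusted p = 0.0628).

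Pool size was compared because a larger pool starts from more RNA. No member and 0 of the 18193 genes changed with the number of dendrites in limma, and no member had an unadjusted p under 0.05, against 4.67% of all genes. Slopes per doubling ran from 0.01 for Atp6v1g2 to 0.26 ± 0.17 (SE) for Atp6v1a, above 0 in 10 of 10 members and in 48.2% of all genes. Slopes did not differ between the strains at the threshold for any member, nor at an unadjusted p under 0.05, which 3.79% of genes reached. Within C57BL/6, 0 members and 0 genes passed for 400 against 100 dendrites, while 1 member and 6.85% of genes had an unadjusted p under 0.05. That member, Atp6v0d1, averaged 8.46 ± 0.23 in pools of 400 and 7.80 ± 0.37 in pools of 100 (SD, n = 5 and n = 4), a difference of 0.67 ± 0.26 (SE, adjusted p = 0.663) as deposited. Atp6v1a averaged 7.08 ± 0.82 in C57BL/6 pools of 100, 7.35 ± 0.66 in pools of 200 and 7.86 ± 0.42 in pools of 400, and the difference of 400 from 100 was 0.78 ± 0.38 (adjusted p = 0.722). In Atp6v1d the C57BL/6 means for 100, 200 and 400 dendrites were 11.2, 11.5 and 11.6, closer to each other than the arrays of any size.

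**Figure D4:**
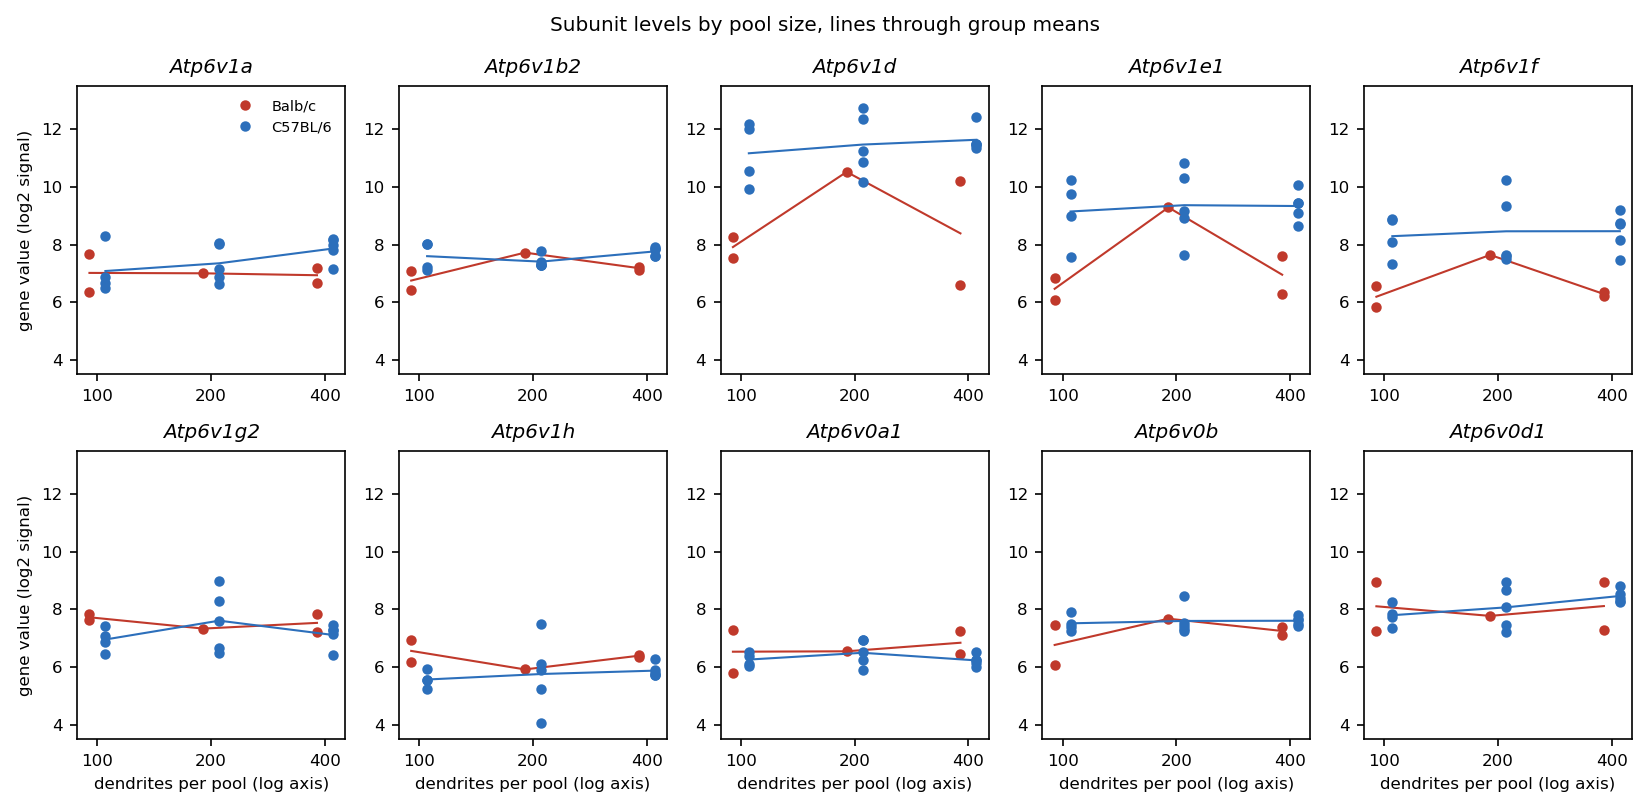
Gene values (log2 signal, vertical axis) of the 10 subunits against dendrites per pool (horizontal log axis) for Balb/c (red) and C57BL/6 (blue), with lines through the group means. In Atp6v1d, C57BL/6 means stay between 11.2 and 11.6 over the 3 sizes, and the lone Balb/c pool of 200, at 10.5, lies above the Balb/c means of 7.91 at 100 and 8.39 at 400.

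The subunits outside the 10 members were counted in lists. Of 5 other ubiquitous or neuronal subunits measured, 2 fell and 0 rose, with a median difference of −1.24. Atp6v1c1, the C subunit that bridges the stalks and the head, was at 7.31 ± 1.26 in Balb/c and 9.13 ± 0.54 in C57BL/6 (−2.04 ± 0.38, adjusted p = 0.00137), and Atp6v1g1, the ubiquitous G subunit, differed by −1.46 ± 0.26 (adjusted p = 0.0015). Atp6v0e2, a small V0 subunit, had −1.24 (adjusted p = 0.0754). Of 6 subunits restricted to tissues such as kidney, bone or testis, 0 fell and 4 rose, with a median of 0.68. Atp6v0d2, a form of osteoclasts and kidney, was at 7.97 ± 0.83 in Balb/c and 6.51 ± 0.66 in C57BL/6 (1.25 ± 0.35, adjusted p = 0.00383). Tcirg1, the osteoclast a3 subunit, also differed by 1.25 (adjusted p = 0.00394), and Atp6v0a4, the kidney a4 subunit, by 0.81 (adjusted p = 0.00554). Of all genes, 11.4% fell and 21.1% rose, and among genes with a mean level up to 7.5 the share that rose was 23.4%. The olfactory receptor median, the gauge of low signal, was also higher in Balb/c, with a median over arrays of 7.13 against 6.18 in C57BL/6. Whether the rise of the tissue-restricted subunits goes beyond that of background was not tested.

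Among partners that build or tether the pump, the genes that passed fell in Balb/c. Of 6 accessory and assembly genes, 2 fell, where 11.4% of all genes and 23.1% of those with a mean level over 7.5 fell. Atp6ap2, the prorenin receptor that sits on V0, was at 10.4 ± 2.40 in Balb/c and 13.8 ± 0.56 in C57BL/6 (−3.62 ± 0.59, adjusted p = 0.000391), and Atp6ap1 differed by −1.27 (adjusted p = 0.028). Vma21, an assembly factor of the endoplasmic reticulum, had −0.70 (adjusted p = 0.187). Of 7 genes of the RAVE complex, which rejoins V1 to V0, and of TLDc proteins, which bind V1, 3 fell and 0 rose. Dmxl2, the rabconnectin of synaptic vesicles, was at 5.84 ± 1.39 in Balb/c and 9.54 ± 0.92 in C57BL/6 (−3.91 ± 0.49, adjusted p = 8.12e-05), Rogdi differed by −1.51 (adjusted p = 0.0121) and Dmxl1 by −2.09 (adjusted p = 0.0179). The Balb/c mean of Dmxl2 lay below the olfactory receptor medians of that strain, so the size of its difference can be bounded by background.

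Genes that use or share the proton gradient came next. None of 7 vesicular transmitter transporters, which trade protons for transmitter, passed in limma, and the smallest adjusted p were 0.146 for Slc18a3, 0.182 for Slc17a9 and 0.28 for Slc18a1, with 0.30, 0.13 and 0.20 as differences. Of 9 chloride and proton exchangers of endosomes and lysosomes, 2 fell and 3 rose, among them Clcn4 at −1.77 (adjusted p = 0.00484), Slc9a5 at 0.81 (adjusted p = 0.00353) and Clcn5 at 0.56 (adjusted p = 0.0247). Of 23 lysosomal hydrolases and membrane proteins, 2 fell and 5 rose, shares near those of all genes (11.4% and 21.1%). The protease cathepsin D gene, Ctsd, was at 9.15 ± 0.61 in Balb/c and 7.34 ± 0.75 in C57BL/6 (1.59 ± 0.36, adjusted p = 0.00102), Ctsf differed by 0.92 and Npc2, which carries cholesterol in lysosomes, by 0.93. Among genes of the mitochondrial ATP synthase, a rotary enzyme related to the vacuolar ATPase, and its inhibitor Atpif1, 12 of 15 fell and 0 rose, with a median of −2.09. Without Atpif1, 11 of 14 subunits fell, with a median of −1.96. Atpif1 differed by −4.60 ± 0.51 (adjusted p = 3.82e-05), Atp5j by −4.11 and Atp5h by −2.54.

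**Figure D5:**
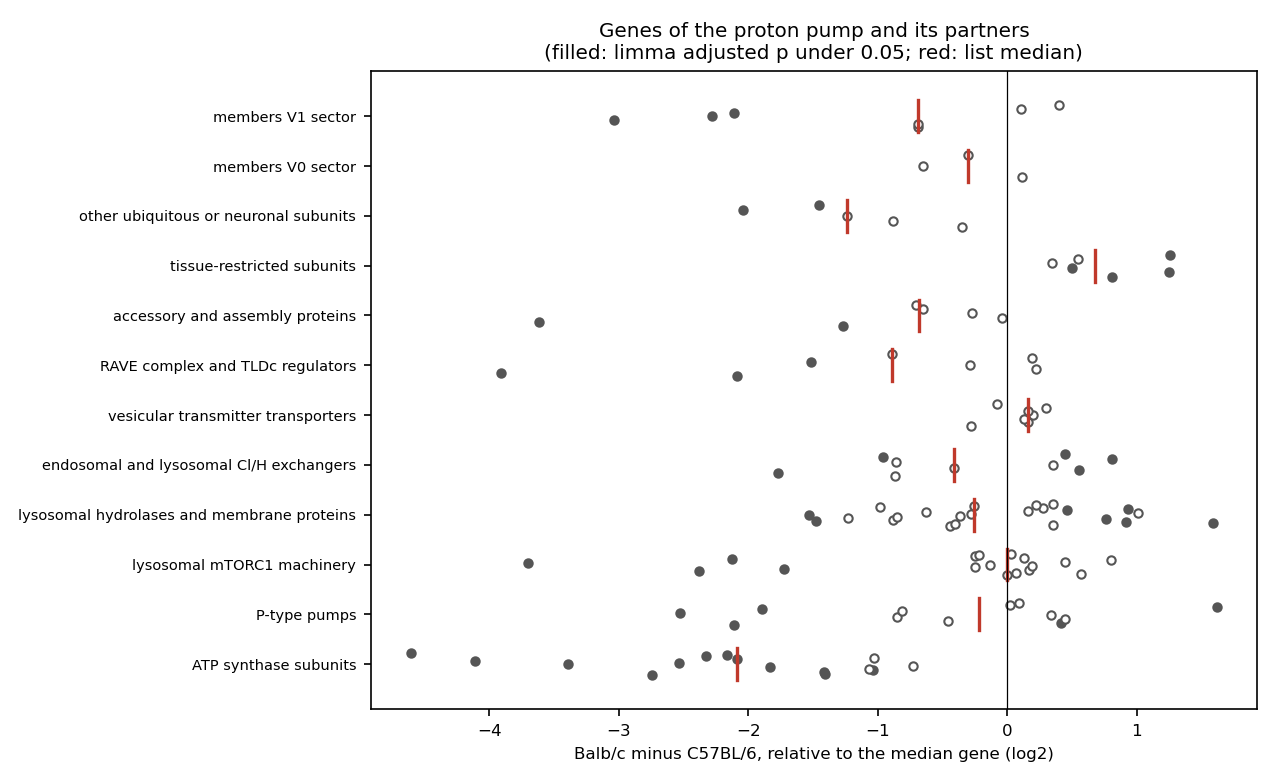
Strain difference (log2, relative to the median gene) of each gene of the proton pump, its partners and 2 other pump families, 1 row per list, filled where the limma adjusted p was under 0.05, with the list median in red. Medians run from −2.09 for ATP synthase genes (Atpif1 included) through −0.69 and −0.31 for the V1 and V0 members to 0.68 for tissue-restricted subunits.

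Cell type markers were counted in the same fit, in which 11.4% of all genes fell and 21.1% rose. Of 12 neuronal and dendritic markers 4 fell and 2 rose, with a mean level per array of 7.07 to 8.47 in Balb/c and 7.90 to 8.70 in C57BL/6. The 3 with the smallest p were the neurofilament genes Nefl (−2.67) and Nefm (−3.08) and Map2, a marker of dendrites (−1.45). Map2 was at 6.72 in Balb/c, below the olfactory receptor medians of that strain, and at 7.95 in C57BL/6. The 2 that rose were Camk2a, whose mRNA is dendritic (0.47, adjusted p = 0.0174, at 7.65 in Balb/c and 6.95 in C57BL/6), and Eno2 (1.61, adjusted p = 0.0239). The labels give pyramidal neurons as the cell type, and markers of both neuron classes were mixed in level. Among pyramidal markers, Crym was at 5.50 in Balb/c and 9.49 in C57BL/6, Nr3c2 at 7.11 and 9.65 and Neurod6 at 6.97 and 9.20, while Slc17a7 was at 6.74 and 6.36, close to the olfactory receptor medians. The Balb/c levels of Crym and Neurod6 were below the olfactory receptor medians of that strain. The 3 pyramidal markers that rose are not among those named. Among interneuron markers, Gad1 was at 8.42 in Balb/c and 10.6 in C57BL/6, Pvalb at 7.60 and 6.18 and Slc32a1 at 6.74 and 6.61. Of pyramidal markers 4 of 11 fell and 3 rose, of interneuron markers 3 of 12 and 1, of astrocyte markers 2 of 12 and 0, of oligodendrocyte markers 0 of 11 and 4, and of microglia and macrophage markers 0 of 12 and 4. Of 6 nuclear and somatic RNAs 4 fell and 1 rose, with Malat1 at 7.15 in Balb/c and 9.93 in C57BL/6. The part of these markers in the subunit differences was not tested.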

How the data were processed

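Dendrite pools were measured on an Affymetrix array of the mouse genome. The authors deposited log2 signals, 1 per probe set, summarised by RMA (2.0 per the submitters' processing notes) from the upper decile of each set's probes. That the scale is log2 was judged from the range of the values. The median centring and range scaling of the methods are not in them, and the sources used here do not say why the columns differ in number format. Genome build and detection calls of the probe sets were not used here.

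In the platform annotation, 34945 of the 45101 probe sets had 1 gene symbol, 932 had several, 9160 had none and 64 were controls. Genes were summarised as the median over probe sets with 1 symbol. No filter on dim genes was applied. Linear models were fitted in R 4.3.3 with limma 3.58.1 and moderated by eBayes. They held strain alone on all 19 arrays for the strain comparison, strain and a slope per doubling of pool size (alone or interacting) for the size comparison, and pools of 400 against 100 dendrites within C57BL/6, with Benjamini-Hochberg adjustment at 0.05 over all genes, or over all 45037 probe sets that were not controls. The fits were tried on simulated data drawn with each gene's C57BL/6 mean and SD on all 19 arrays. That simulation held no number format split and no wider Balb/c spread, so it does not bear on either. Promoter windows came from RefSeq (GRCm38.p6).

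The members, gene lists and tests were chosen with earlier results of these data known. The text names the 10 members and, of each list, up to 3 genes with the smallest p, and other markers (Camk2a, Eno2, Slc17a7, Neurod6, Slc32a1) were chosen after their values were seen. Alternatives covered scaling, the gene summary, filters, number format, replicate number as a block, pool size, variance per strain, the methods' t-test and left-out arrays.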

Additional observations from a re-analysis of the deposited data

Results flagged for a closer look

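Of 132 groups of values tested for an array far from the rest, 12 had one, where chance gives about 1 in 20 if groups are independent. They are not, since gene values and the probe sets they are medians of were both tested, and some flags repeat a value. In Balb/c, the Atp6v1h probe set 1415826_at was at 9.37 in Balb/c 100-1, against 6.42 for the next array, and the median over the 3 probe sets of the gene kept this out of its gene value. Among C57BL/6 pools of 100, 1447659_x_at of Atp6v1h was low at 3.22 in 100-1, and 1457639_at of the same gene was low at 5.54 in 100-2. Among pools of 200, Atp6v1b2 was high at 7.78 and its probe set 1449649_at at 7.05, both in 200-4, and Atp6v0b was high at 8.47 in 200-1, a value set by 1425448_x_at (8.47). Among pools of 400, Atp6v1d was high at 12.4 in 400-5, through 1416951_a_at (12.4), against 11.5 for the next array. In 400-3, low values were found for Atp6v1g2 at 6.41, 1422508_at of Atp6v1a at 6.08 and 1457639_at of Atp6v1h at 5.71. No difference of a strain effect between pool sizes passed a test.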

How the results depend on the processing

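Signal over background was gauged only against the olfactory receptor genes, and the 5 Balb/c arrays limit precision. The 3 members that fell kept their direction in every alternative run. They lost the threshold when the number format was a block or when fits used the long format alone, Atp6v1e1 also with the replicate block (adjusted p = 0.0862) and without the 2 arrays with the fewest distinct levels, Balb/c 100-2 and 400-1 (0.0743). Their adjusted p over these alternatives reached 0.347 for Atp6v1d, 0.484 for Atp6v1e1 and 0.329 for Atp6v1f. For other members and probe sets that changed sides or sign, the cause was not tested.

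The count of members lower was 5 with the probe set of highest mean, 1 with the filter on the olfactory receptor level (which left 820 genes and 1 member), 0 with the format block and 0 within the long format, and 3 to 4 with each array left out. Of all genes in those fits, 14.1% fell with the probe set of highest mean and 25.7% with the olfactory filter. With the format block 1.28% fell, within the long format 0%, and with each array left out 8.60% to 12.9%. The count higher was 0 to 1 with each left out, where 13.9% to 23.9% of all genes rose. The median difference of the members was −1.61 with the probe set of highest mean, −2.61 with the olfactory filter and −0.77 to −0.50 with each array left out. Probe sets lower numbered 6 without ambiguous ones, 4 with the olfactory filter, 1 with the format block, 0 within the long format, 6 without the 2 arrays and 10 to 11 with each array left out. Probe sets higher numbered 0 with the olfactory filter, 1 with a filter at the median gene (chosen after seeing the data), 0 with the format block, 0 within the long format, 1 with the replicate block, 1 in pools of 100, 4 without the 3 arrays between the strains, 0 without the 2 arrays and 1 to 3 with each array left out. Shares over all probe sets were not computed for these alternatives. Counts for pool size stayed at 0.

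Signs turned, without a call unless stated, as follows. With range scaling, 1447659_x_at was at −0.0386. With the probe set of highest mean, Atp6v1a was at 0.39, Atp6v1h at −1.14 and Atp6v0a1 at −3.77 (adjusted p = 0.000435). With the mean of probe sets, Atp6v1h was at −0.0787 and Atp6v0a1 at −0.23, and without ambiguous probe sets at −0.19 and −0.33. With the filter at the median gene, 1419883_s_at was at 0.0565. With the format block and within the long format, Atp6v0d1 was at 0.24, 1447659_x_at at −0.0225 and 1415671_at at 0.215. In pools of 100, Atp6v0d1 was at 0.0934, 1447659_x_at at −0.219 and 1415671_at at 0.0675. In pools of 400, 1450634_at was at −0.235, 1449649_at at −0.218, 1457049_at at −0.038 and 1447659_x_at at −0.388. Without the 3 arrays, 1449649_at was at −0.0861. Without the 2 arrays, Atp6v1g2 was at −0.043, Atp6v0a1 at −0.0028, 1450634_at at −0.31, 1419883_s_at at 0.32, 1457049_at at −0.17 and 1417799_at at −0.0777. With each array left out, ranges were −0.00533 to 0.214 for 1417799_at, −0.29 to 0.11 for 1419883_s_at, −0.13 to 0.28 for 1447659_x_at, −0.14 to 0.20 for 1449649_at, −0.23 to 0.62 for 1450634_at, −0.0871 to 0.326 for 1457049_at and −0.0418 to 0.352 for Atp6v0a1.

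The labels number replicates in both strains, but same-numbered arrays deviated together with correlations of only −0.19 to 0.07 over the 5 pairs. Those values show no pairing but cannot exclude it, and whether same-numbered pools were handled together is not said. With the replicate block, 2 members were lower, beside 3.89% of all genes. In that fit Atp6v1g2 was at −0.17, 1419883_s_at at 0.0122 and 1417799_at at −0.203.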

Other observations

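Among the machinery that senses amino acids at the lysosome together with the vacuolar ATPase and turns on mTORC1, 4 of 17 genes fell in Balb/c and 0 rose, with a list median of −0.01 relative to the median gene. The share that fell is near the 23.1% of all genes with a mean level over 7.5, and 11.4% of all genes fell. The 3 with the smallest p were Rheb, the GTPase that activates mTORC1, at 7.09 ± 1.43 in Balb/c and 10.6 ± 0.48 in C57BL/6 (−3.70 ± 0.39, limma adjusted p = 3.82e-05), Lamtor3, a part of the Ragulator scaffold, at −2.38 (adjusted p = 0.00027), and Rragc, a Rag GTPase, at −2.12 (adjusted p = 0.000546). In Rheb, Lamtor3 and Rragc alike, the mean of C57BL/6 was above the 5 Balb/c values, which naming genes by their smallest p favours.

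Of 12 P-type pumps, which move ions other than through a rotor, 3 fell and 2 rose, against 11.4% and 21.1% of all genes. The plasma membrane calcium pump Atp2b1 was at 7.18 ± 0.90 in Balb/c and 9.49 ± 0.88 in C57BL/6 (−2.53 ± 0.42, adjusted p = 0.000631). Atp1b1, the beta subunit of the sodium pump, differed by −2.11 (adjusted p = 0.000882), and Atp2b3, another calcium pump of neurons, by −1.89 (adjusted p = 0.000929).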
